A study of Mus musculus with 37 samples.

Results

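The sarcomere and contractile apparatus genes were followed in embryonic mouse hearts, taken at E10.5, that by their labels carried 1 or 2 working alleles of Nipbl and of Isl1. The group was a fixed list of 38 gene symbols for thick and thin filament proteins, the titin and M-band system, the Z-disc and the factors that fold or attach these proteins. All 38 were found among the 25239 gene rows of the count table, and all 38 were among the 15046 genes with enough counts to test. RNA of the hearts was measured by bulk paired-end sequencing. The fathers carried Stra8-iCre and 1 Nipbl Flox allele, so that a sperm held either Nipbl Flox, which acts as a wild-type allele, or Nipbl FIN, a null allele. The mothers were Isl1 Cre/+, in which the Cre gene takes the place of 1 working Isl1 allele. The labels do not state whether that Cre acted on a Nipbl Flox allele in Isl1-expressing cells, nor whether a library was made from 1 heart or from several. The 4 genotypes were Nipbl +/+; Isl1 +/+ (10 libraries, here called wild-type), Isl1 +/- (9 libraries), Nipbl +/- (9 libraries) and Nipbl +/-; Isl1 +/- (9 libraries, here called double heterozygous).

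In a sarcomere, thick filaments of myosin pull on thin filaments of actin, and the troponin complex with tropomyosin sets by calcium when they may do so. Titin spans from the Z-disc, where alpha-actinin ties thin filaments together, to the M-band, where myomesin ties thick filaments together. The heart begins to beat with a mixture of protein variants, and several of them are exchanged for others as the heart matures, among them slow skeletal troponin I (Tnni1) for cardiac troponin I (Tnni3). Myosin heavy chain alpha (Myh6) and beta (Myh7) differ between chambers in the embryo, and so do the atrial (Myl7) and ventricular (Myl2) regulatory light chains. Skeletal alpha-actin (Acta1) is made in the embryonic heart beside cardiac alpha-actin (Actc1), the main actin of the cardiac thin filament.

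The RefSeq promoter windows of both alpha-actin genes are shown, since Acta1 was the single member past the threshold in the edgeR fit with genotype and set number and Actc1 is its cardiac counterpart. Each sequence is the 250 bases before the gene start given by RefSeq on GRCm38.p6, read 5′ to 3′ on the gene's own strand. Acta1 lies at chr8:123894776-123895025 on the minus strand and Actc1 at chr2:114052876-114053125 on the minus strand. The annotations differ over Actc1: in GENCODE M21 1 transcript starts at 114052887, close to the RefSeq start at 114052875, and another at 114053548, so that this window lies inside the gene as GENCODE bounds it. Capitals mark a CArG box (the site of serum response factor), CATTCC (the core of the TEAD site) and TATAAA where these letters were found.
Acta1: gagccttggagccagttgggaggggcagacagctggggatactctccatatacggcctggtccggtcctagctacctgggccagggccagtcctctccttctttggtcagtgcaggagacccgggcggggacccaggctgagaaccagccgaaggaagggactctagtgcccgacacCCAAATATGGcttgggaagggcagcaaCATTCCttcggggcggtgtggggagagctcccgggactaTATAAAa
Actc1: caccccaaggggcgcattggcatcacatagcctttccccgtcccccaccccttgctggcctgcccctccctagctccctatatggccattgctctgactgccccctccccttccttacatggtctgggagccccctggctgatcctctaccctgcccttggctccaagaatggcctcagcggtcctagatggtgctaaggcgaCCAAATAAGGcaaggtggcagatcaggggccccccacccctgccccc

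A CArG box was searched on both strands in the 250 bases before each RefSeq start. A gene counted once if any of its starts had a match, so genes with several starts had more windows searched. The box was present in 6 of the 34 members with a promoter entry (17.6%) and in 1.62% of all 27025 genes with such an entry. The sites of the other 4 members are shown for comparison, each as 26 bases with the CArG box in capitals. They lie at chr9:110763585-110763610 (plus strand) for Myl3, at chr14:34588699-34588724 (minus strand) for Ldb3, at chr17:71019450-71019475 (plus strand) for Myom1 and at chr2:17463001-17463026 (minus strand) for Nebl. The sites of Myl3, Myom1 and Nebl also lie inside the gene as GENCODE bounds it, 36, 46 and 212 bases before the start of a shorter transcript, and 0 exons of these genes overlap them.
Myl3: gccaatgcCCTTTTATGGccctgtcc
Ldb3: gttacagtCCATTTATGGgcgcagca
Myom1: cttcctggCCATAAAAGGctggctgt
Nebl: tcccatctCCTAAATTGGctggaaat

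The MEF2 site was found in 5 members (14.7%, against 0.592% of all genes with a promoter entry), which were Mybpc3, Myoz2, Synpo2l, Ttn and Xirp2. CATTCC on either strand was found in 12 members (35.3%, against 14.4%), and TATAAA on the gene's strand in 2, Acta1 and Tnnt1 (5.88%, against 8.94%). No promoter entry was matched for Nexn, Myom2, Tcap and Xirp1. Of the 6 members with a CArG box, Acta1 was past the threshold in that fit and the other 5 were not. These matches describe letters in a window and do not show that a factor was bound.

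The libraries held 23.4 M to 51.0 M counts (median 36.2 M), and the members took 4.17% to 6.58% of them (median 5.44%). Each label carries a set number after the letters IVF. Set 1 held 3 wild-type and 3 Isl1 +/- libraries, sets 2, 5 and 6 held all 4 genotypes, and set 7 held double heterozygous replicate 2 alone, which a set term fits exactly. Nipbl, given as CPM (counts scaled to equal library size), lay between 47.6 and 78.8 in wild-type, between 27.1 and 72.4 in Nipbl +/- and between 28.2 and 51.5 in double heterozygous hearts. Of the Nipbl heterozygous libraries, 2 lay within the wild-type range. One of them is double heterozygous replicate 2, at 51.5 CPM, which adds nothing to a comparison with a set term because it is alone in set 7. The other, at 72.4 CPM, is the library labelled Nipbl +/- replicate 2, and the values that change without it are given below. It also had the highest slope on transcript length of all libraries (0.276, slope described below). The lowest and highest wild-type levels of Nipbl, 47.6 and 78.8 CPM, came with slopes of -0.253 and 0.173. Among the other Nipbl +/- libraries the lowest and highest, 27.1 and 44.9 CPM, came with -0.160 and 0.184. The part of this slope in the level of 72.4 CPM was not tested, nor was the label. Isl1 had a median of 6.82 CPM in wild-type and 5.80 CPM in Isl1 +/- hearts, and the difference, -0.20 on the log2 scale with an SE of 0.18, was not past the threshold (adjusted p 0.877, edgeR), so its level does not check those labels. In double heterozygous hearts the Isl1 median was 8.47 CPM, above that of wild-type hearts, and in Nipbl +/- hearts it was 12.5 CPM. Because the hearts were sequenced whole, fewer cells of a type and less RNA per cell cannot be told apart. Nothing in the labels says that the libraries of a genotype came from separate litters, so the p-values measure the spread between these libraries.

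All 38 genes were detected in every library. Compared per length, as CPM per kilobase of the longest annotated transcript over all 37 libraries, Actc1 stood first at 6323, followed by the ventricular light chain Myl2 at 3651, troponin C (Tnnc1) at 2634 and the ventricular essential light chain Myl3 at 2268. Tropomyosin 1 (Tpm1) stood at 1434, cardiac troponin T (Tnnt2) at 1192, Myh7 at 1140 and Tnni1 at 1029 CPM per kilobase. Myh6 at 928 and Tnni3 at 772 CPM per kilobase came next, and Acta1 was at 517, the eleventh level of the 38. Titin, at 12.0 CPM per kilobase over a transcript of 106824 bases, stood near the lower end. The lowest levels were those of Myom2, an M-band protein, at 0.178 and of Xirp2, a protein of the intercalated disc, at 0.0625 CPM per kilobase. In single libraries these last 2 genes rested on 12 to 74 counts and 5 to 58 counts, while Actc1 rested on 153149 to 516346 counts.

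**Figure D1:**
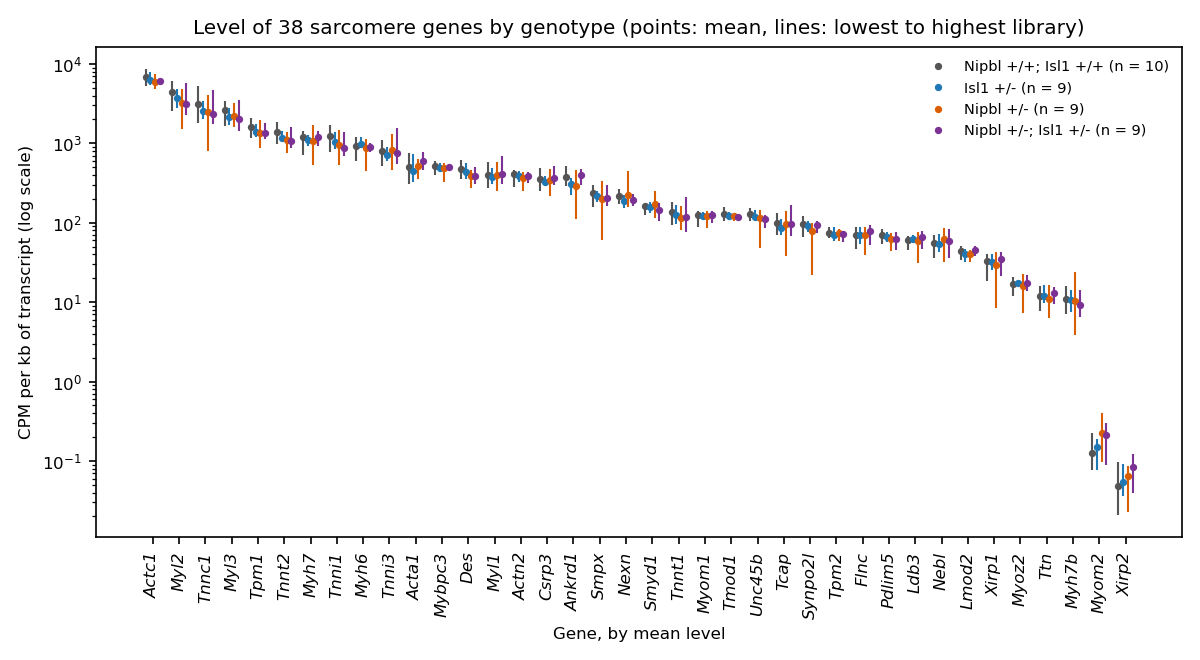
Level of each of the 38 genes on a log axis, as CPM per kilobase of the longest transcript, with the mean of each genotype as a point and its lowest to highest library as a line. The means over all libraries run from 6323 for Actc1 to 0.0625 for Xirp2, and the lines of the 4 genotypes overlap for every gene.

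The question of the design was whether loss of 1 Nipbl allele, 1 Isl1 allele or both changed these genes. Calls were made by the edgeR quasi-likelihood test with genotype and set number in the model, at a Benjamini-Hochberg adjusted p under 0.05 over all 15046 genes. In Isl1 +/- against wild-type hearts, edgeR called 0 of 38 members, beside 0% of all genes, and DESeq2 also called 0 members, beside 0.0739%. At an unadjusted p under 0.05 there were 7 members, Actc1, Acta1, Myl3, Tmod1, Tpm2, Des and Tnnt2, all with lower values in Isl1 +/- hearts, against 5.89% of all genes. The point estimates of 33 of the 38 members were below 0, with a median log2 change of -0.12 beside -0.0034 over all genes. The lowest, that of Myl3, was -0.30 (SE 0.13, adjusted p 0.835).

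In Nipbl +/- against wild-type hearts, edgeR called 0 of 38 members, with 1.71% of all genes called and 1.2% called higher, and DESeq2 called 0 as well, beside 3.08% of all genes. At an unadjusted p under 0.05 there were 5 members against 15.1% of all genes. Of these, Myom2 and Acta1 had higher and Pdlim5, Actn2 and Des lower values in Nipbl +/- hearts. The smallest adjusted p was that of Myom2 at 0.137 (log2 change 0.69, SE 0.24), a gene near the detection limit that ranged from 0.391 to 1.15 CPM in wild-type and from 0.495 to 2.02 CPM in Nipbl +/- hearts. In double heterozygous against wild-type hearts, 1 of 38 members was called, Acta1, which rose, with 2.6% of all genes called and 1.77% called higher. Of the 8 members with an unadjusted p under 0.05, against 11.6% of all genes, Acta1, Xirp2 and Myom2 had higher and Pdlim5, Tnnt2, Tnni1, Des and Myl2 lower values. The median log2 change of the 38 members was -0.11 in Nipbl +/- and -0.08 in double heterozygous hearts, with 27 of 38 estimates below 0 in each. Over all genes the medians were 0.0080 and -0.0019, with 47.8% and 50.5% of estimates below 0.

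In double heterozygous against Isl1 +/- hearts, 1 of 38 members rose, again Acta1, with 0.957% of all genes called. Another 4 members, Ankrd1, Csrp3, Myl1 and Tcap, had an unadjusted p under 0.05 and higher values, against 7.49% of all genes. In double heterozygous against Nipbl +/- hearts, edgeR and DESeq2 called 0 of 38 members, with 0% of all genes called by either, and 2 members, Ankrd1 and Smyd1, had an unadjusted p under 0.05, against 9.01% of all genes. Averaged over both Isl1 genotypes, the Nipbl effect called 1 of 38 members, Acta1, which was higher, beside 4.02% of all genes called and 2.67% called higher. With it, Csrp3, Myom2, Tpm2, Myl1 and Pdlim5 had an unadjusted p under 0.05, against 14.9% of all genes. Averaged over both Nipbl genotypes, the effect of Isl1 called 0 of 38 members with edgeR and with DESeq2, beside 0.173% and 0.788% of all genes, and there were 4 members, Nexn, Tpm2, Tmod1 and Myl3, at an unadjusted p under 0.05, against 12.2% of all genes. In the interaction, the test of whether the double heterozygous hearts depart from the sum of both single losses, edgeR and DESeq2 called 0 of 38 members, beside 0% of all genes with both. Ankrd1, Acta1 and Lmod2 had an unadjusted p under 0.05 there, against 2.73% of all genes. These comparisons share libraries and are not independent of each other.

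The data also bounded how much the members could have changed. The 95% interval of the log2 change lay within -1 and 1 for 38 members in Isl1 +/-, 37 in Nipbl +/- and 36 in double heterozygous against wild-type hearts. It lay within -0.5 and 0.5 for 29, 30 and 29 members in the same order. For the interaction it did so for 20 of 38 members.

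**Figure D2:**
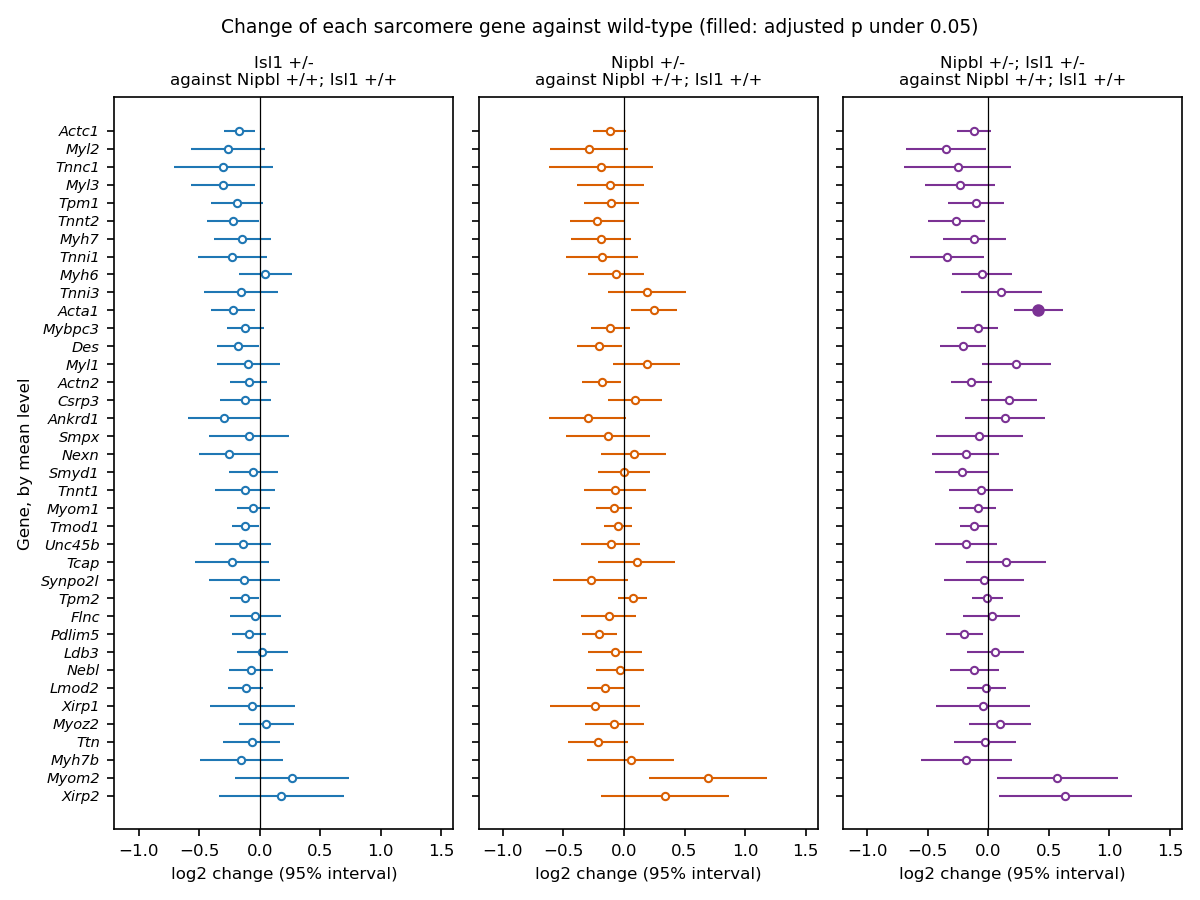
Log2 change of each member against wild-type (points) with its 95% interval (lines) in Isl1 +/-, Nipbl +/- and double heterozygous hearts, genes ordered by mean level. The filled point is Acta1 in double heterozygous hearts, at 0.41, and the widest intervals are those of Myom2 and Xirp2, the genes with the lowest counts.

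Acta1, skeletal alpha-actin, rose in double heterozygous hearts against wild-type and against Isl1 +/- hearts. Its level ran from 442 to 1096 CPM in wild-type hearts with a median of 668, and from 475 to 1049 CPM in Isl1 +/- hearts with a median of 593. In Nipbl +/- hearts it ran from 509 to 912 CPM with a median of 736, and in double heterozygous hearts from 666 to 1141 CPM with a median of 820. The ranges of the 4 genotypes overlapped. The libraries of set 1, which held no Nipbl heterozygote, lay at 695 to 1096 CPM and those of set 6, with all 4 genotypes, at 472 to 666 CPM. These sets did not overlap in Acta1. All 9 double heterozygous libraries were above the Isl1 +/- mean and 7 of 9 were above the wild-type mean.

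With the set in the model, the log2 change of Acta1 was 0.41 in double heterozygous against wild-type hearts (SE 0.10, adjusted p 0.0152, edgeR), a 1.33-fold increase with a 95% interval of 1.16 to 1.53. Taken set by set, mean log2 CPM was higher by 0.56 in set 2, by 0.27 in set 5 and by 0.42 in set 6. Against Isl1 +/- hearts the log2 change of Acta1 was larger, 0.64 (SE 0.10, adjusted p 4.28e-04, edgeR), and within the same sets the difference was 0.59, 0.69 and 0.49. In Nipbl +/- against wild-type hearts Acta1 was at 0.25 on the same scale (SE 0.09, adjusted p 0.192, edgeR), and within sets at 0.55, 0.06 and 0.18. In Isl1 +/- against wild-type hearts it was -0.22 (SE 0.09, adjusted p 0.793, edgeR). The interaction was 0.39 (SE 0.13, unadjusted p 0.00528, adjusted p 0.999), so that the larger value in double heterozygous hearts was not shown to exceed the sum of both single changes.

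The call of Acta1 depended on the set term and on which sets were included. Without a set term the change in double heterozygous against wild-type hearts was 0.25 (adjusted p 0.364, edgeR) and against Isl1 +/- hearts it was 0.42 (adjusted p 0.399). The first comparison also missed the threshold without set 2 (0.33, adjusted p 0.250), without set 5 (0.46, adjusted p 0.225) or without set 6 (0.41, adjusted p 0.0630), and the second without set 5 (0.60, adjusted p 0.189). Leaving out any 1 of the 37 libraries left Acta1 past the threshold in both comparisons, with values of 0.36 to 0.50 and of 0.60 to 0.67. The averaged Nipbl effect on Acta1 was 0.44 (SE 0.07, adjusted p 2.26e-04, edgeR) and passed the threshold without any 1 of sets 1, 2, 5 and 6 (0.38 to 0.47), but not without a set term (0.22, adjusted p 0.228). The single member called for that effect without a set term was Myom2, beside 6.95% of all genes.

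Acta1 lies at chr8:123891769-123894751 on the minus strand (GENCODE M21, GRCm38), and 2.22% of the 50-base words of its exons recur in the annotated gene Gm47692. Actc1, at chr2:114047282-114053548 on the minus strand, shares no 50-base word with another annotated gene, so 50 bases of its exons tell it from any other annotated gene. Actc1 ranged from 7687 to 12625 CPM in wild-type hearts, with a median of 9946. It ranged from 8047 to 11605 CPM in Isl1 +/- (median 8730), from 7097 to 10964 CPM in Nipbl +/- (median 8832) and from 8165 to 9909 CPM in double heterozygous hearts (median 9119). These ranges overlapped as well. Its log2 change was -0.17, -0.12 and -0.12 in these 3 genotypes against wild-type, none past the threshold.

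**Figure D3:**
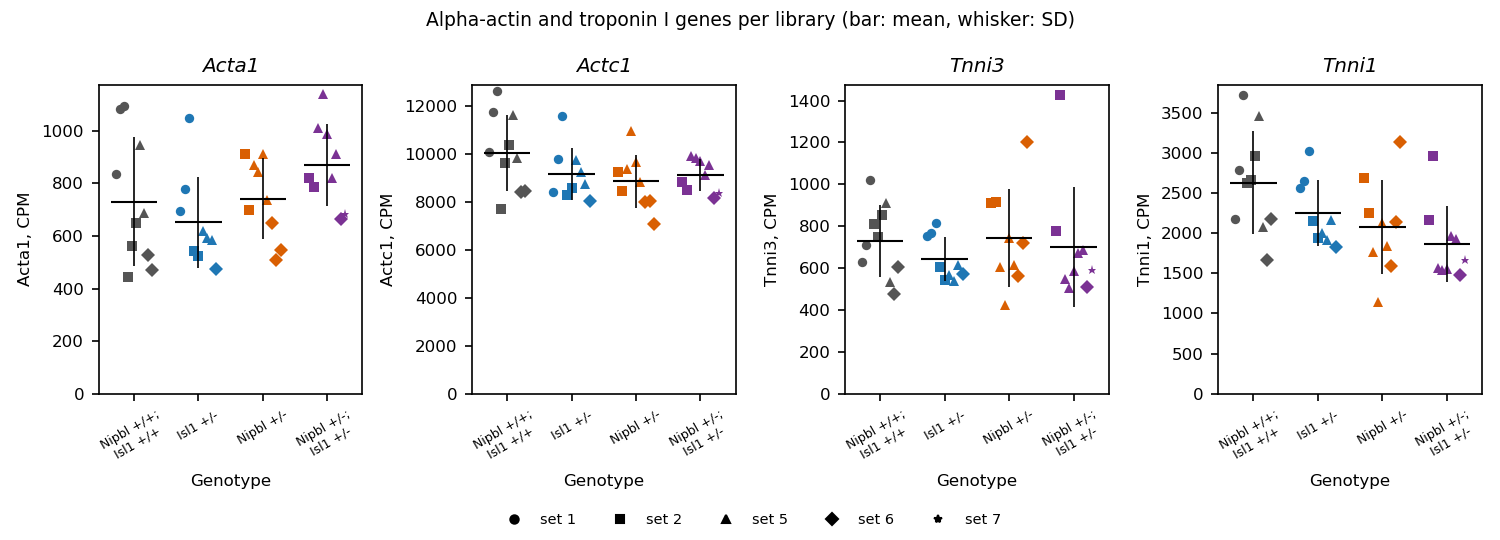
CPM of Acta1, Actc1, Tnni3 and Tnni1 in every library by genotype, with the mean as a bar, the SD as a whisker and the set as the shape of the point. Double heterozygous hearts lie between 666 and 1141 CPM for Acta1, above the Isl1 +/- mean in all 9 libraries, and the circles of set 1 lie at 695 CPM or higher for Acta1.

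Ratios of counterpart genes within a library do not depend on its scaling. They were compared within sets by exact permutation, two-sided, with p-values adjusted over the 12 tests (4 ratios in 3 genotypes against wild-type). The 4 pairs were chosen with earlier results of these data known, so the p-values are not those of pairs fixed beforehand. How many other pairs of genes separate the genotypes as well was not counted. The ratio of Tnni3 to Tnni1, cardiac over slow skeletal troponin I, separated the hearts by labelled Nipbl genotype. As log2 of the counts it ran from -1.97 to -1.70 in wild-type (median -1.84) and from -1.89 to -1.67 in Isl1 +/- hearts (median -1.81). It ran from -1.58 to -1.30 in Nipbl +/- (median -1.52) and from -1.61 to -1.05 in double heterozygous hearts (median -1.49). All 18 libraries labelled Nipbl heterozygous lay above all 19 labelled wild-type or Isl1 +/-, the lowest of the former at -1.61 and the highest of the latter at -1.67. The 18 included the library labelled Nipbl +/- replicate 2, at -1.43, with its Nipbl level of 72.4 CPM.

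The set-adjusted difference of Tnni3 to Tnni1 was 0.37 on the log2 scale in Nipbl +/- against wild-type hearts (9 against 7 libraries, exact permutation p 6.67e-04, adjusted p 0.00476), a 1.29-fold higher ratio. In double heterozygous hearts it was 0.43 (8 against 7 libraries, exact permutation p 0.00159, adjusted p 0.00476), and in both tests p was the smallest that the permutations can give. In Isl1 +/- hearts it was 0.06 (9 against 10 libraries, exact permutation p 0.0795, adjusted p 0.119). Within sets 2, 5 and 6 the difference was 0.34, 0.42 and 0.34 in Nipbl +/- hearts and 0.51, 0.43 and 0.29 in double heterozygous hearts. Double heterozygous against Isl1 +/- hearts, a comparison added after seeing the data that shares no library with Nipbl +/- against wild-type, gave 0.36 (8 against 6 libraries, exact permutation p 0.00149, adjusted over 4 ratios 0.00298). Without set 5 the difference was 0.34 in Nipbl +/- hearts (adjusted p 0.06) and 0.43 in double heterozygous hearts (adjusted p 0.0960), where fewer permutations were possible. Leaving out any 1 of the compared libraries kept both ratios past the threshold, with differences of 0.34 to 0.40 and of 0.36 to 0.47, the lowest of the latter without double heterozygous replicate 8.

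Neither troponin I gene was called on its own by edgeR with genotype and set number as terms, while both were called in some comparisons with a length slope added. Tnni3 (chr7:4518305-4524229, minus strand) had log2 changes of -0.15, 0.19 and 0.11 in Isl1 +/-, Nipbl +/- and double heterozygous against wild-type hearts. Tnni1 (chr1:135779434-135810989, plus strand) had changes of -0.22, -0.18 and -0.34 in the same order, and without set 5 the averaged Nipbl effect on Tnni1 turned to 0.080. The CPM of each gene ranged widely within a genotype, Tnni3 from 476 to 1019 and Tnni1 from 1660 to 3720 in wild-type hearts, while their ratio stayed within the narrow range given above. Neither gene shares a 50-base word with another gene.

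The ratio of Acta1 to Actc1 ran from -4.16 to -3.44 in wild-type hearts (median -3.92) and from -4.08 to -3.47 in Isl1 +/- hearts (median -3.93). It ran from -3.98 to -3.34 in Nipbl +/- hearts (median -3.60) and from -3.62 to -3.11 in double heterozygous hearts (median -3.43). The ranges overlapped, and 6 of 9 double heterozygous libraries and 3 of 9 Nipbl +/- libraries lay above every wild-type library. The set-adjusted difference was 0.37 in Nipbl +/- hearts (exact permutation p 0.00267, adjusted p 0.00533) and 0.51 in double heterozygous hearts (exact permutation p 0.00159, adjusted p 0.00476). It was -0.05 in Isl1 +/- hearts (exact permutation p 0.301, adjusted p 0.329). Against Isl1 +/- hearts the double heterozygous hearts differed by 0.58 (exact permutation p 0.00149, adjusted over 4 ratios 0.00298). In permutation tests, the difference in Nipbl +/- hearts missed the threshold without a set term (0.24, adjusted p 0.0847) and without set 2 (0.25, adjusted p 0.0686). Without set 5 it was 0.46 (adjusted p 0.06), and that in double heterozygous hearts was 0.58 (adjusted p 0.0960). Fewer permutations were possible without set 5, so missing the threshold there does not show a smaller difference.

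The ratio of the atrial to the ventricular regulatory light chain, Myl7 to Myl2, was also higher in both genotypes labelled Nipbl heterozygous. It ran from -0.51 to 0.22 in wild-type (median -0.30), from -0.39 to 0.19 in Isl1 +/- (median -0.06), from -0.06 to 0.95 in Nipbl +/- (median 0.17) and from 0.00078 to 0.42 in double heterozygous hearts (median 0.17). The ranges overlapped, with 3 of 9 libraries of each Nipbl heterozygous genotype above every wild-type library. The set-adjusted difference was 0.49 in Nipbl +/- hearts (exact permutation p 0.00267, adjusted p 0.00533), 0.48 in double heterozygous hearts (exact permutation p 0.00159, adjusted p 0.00476) and 0.12 in Isl1 +/- hearts (adjusted p 0.247, exact permutation). Double heterozygous against Isl1 +/- hearts differed by 0.32 (exact permutation p 0.00744, adjusted over 4 ratios 0.00992). Without set 5, where fewer permutations were possible, the difference from wild-type was 0.35 (adjusted p 0.0960) in Nipbl +/- and 0.44 (adjusted p 0.133) in double heterozygous hearts. Myl2 itself had log2 changes of -0.29 and -0.35 in Nipbl +/- and double heterozygous hearts and Myl7, which is not among the 38 genes, 0.19 and 0.11, none of them called in the fit with genotype and set number. Myl2 was called lower in both with a length slope added. Within sets 2, 5 and 6 the log2 difference of Myl2 was -0.27, -0.83 and 0.13 in Nipbl +/- and -0.13, -0.68 and -0.38 in double heterozygous hearts, and without set 5 the averaged Nipbl effect on Myl2 turned to 0.063.

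The ratio of Myh6 to Myh7 did not separate the genotypes. It ran from -0.70 to 0.14 in wild-type, from -0.35 to 0.12 in Isl1 +/-, from -0.66 to -0.08 in Nipbl +/- and from -0.94 to -0.07 in double heterozygous hearts. The set-adjusted difference was 0.19 in Isl1 +/- hearts (exact permutation p 0.0413, adjusted p 0.0709), 0.11 in Nipbl +/- hearts (adjusted p 0.329, exact permutation) and 0.10 in double heterozygous hearts (adjusted p 0.429, exact permutation). In Isl1 +/- hearts it passed the threshold without Isl1 +/- replicate 2 (0.23), wild-type replicate 1 (0.25) or wild-type replicate 7 (0.22). Double heterozygous against Isl1 +/- hearts differed by -0.13 (exact permutation p 0.274). Myh6 and Myh7 lie side by side on chromosome 14 and share 22.6% and 22.2% of their 50-base words, so part of the reads of each could have been split or dropped in counting.

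**Figure D4:**
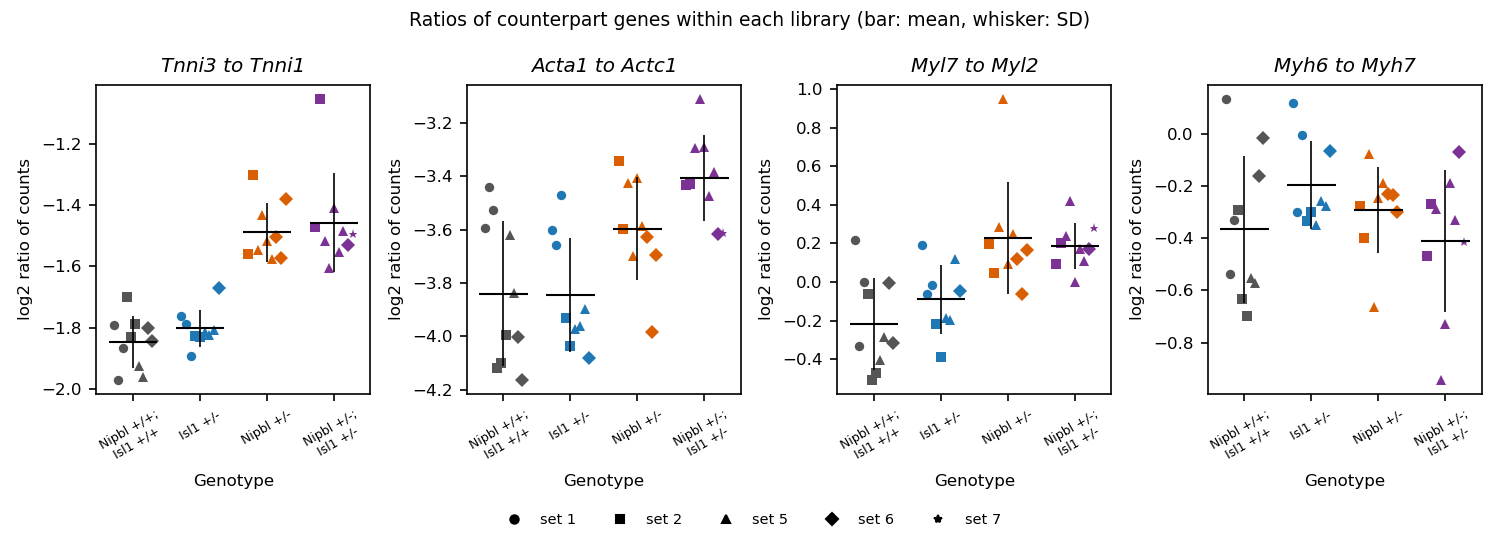
Log2 ratio of counts of Tnni3 to Tnni1, Acta1 to Actc1, Myl7 to Myl2 and Myh6 to Myh7 in every library by genotype, with the mean as a bar, the SD as a whisker and the set as the shape of the point. For Tnni3 to Tnni1 the 18 libraries labelled Nipbl heterozygous lie at -1.61 or higher and the other 19 at -1.67 or lower. The 18 include Nipbl +/- replicate 2, which had a Nipbl level of 72.4 CPM. The groups overlap in the other ratios.

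Among the remaining thick filament genes, log2 changes against wild-type are given for Isl1 +/-, Nipbl +/- and double heterozygous hearts in that order. Myh6 was at 0.05, -0.07 and -0.05, Myh7 at -0.15, -0.19 and -0.12, and Myh7b, a slow tonic heavy chain, at -0.15, 0.05 and -0.18. The essential light chain Myl3 was at -0.30, -0.11 and -0.23, and Myl1, the essential light chain of fast skeletal muscle, at -0.09, 0.19 and 0.23. Myosin binding protein C (Mybpc3) was at -0.12, -0.11 and -0.09. No value of these genes was past the threshold in this fit, while Myl1 passed it with a length slope added. Without the library labelled Nipbl +/- replicate 2, which had the highest level of its group, Myh7b was at -0.14 in Nipbl +/- hearts, a turned direction.

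Among thin filament genes, Tnnt2 was at -0.22, -0.22 and -0.26, Tnnc1 at -0.30, -0.19 and -0.25 and slow skeletal troponin T (Tnnt1) at -0.12, -0.07 and -0.06. The tropomyosins were at -0.18, -0.11 and -0.10 for Tpm1 and at -0.13, 0.07 and -0.01 for Tpm2. The proteins that set the length of thin filaments by acting at their pointed ends, tropomodulin (Tmod1) and leiomodin (Lmod2), were at -0.12, -0.05 and -0.11 and at -0.12, -0.15 and -0.02. Tmod1 had the smallest spread of all members, with a residual SD of 0.10 on the log2 scale, where the median member had 0.26.

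Titin and the M-band gave -0.07, -0.22 and -0.03 for Ttn and -0.05, -0.08 and -0.09 for myomesin 1 (Myom1). Alpha-actinin 2 (Actn2), the main crosslinker of the Z-disc, was at -0.09, -0.18 and -0.14, and the Z-disc and intermediate filament linker desmin (Des) at -0.18, -0.20 and -0.21. Pdlim5, a Z-disc scaffold, was at -0.09, -0.20 and -0.20, and with DESeq2 its averaged Nipbl effect passed the threshold, which brought that count to 2 of 38 members, beside 5.46% of all genes called by DESeq2. Telethonin (Tcap), the cap of titin at the Z-disc, was at -0.23, 0.10 and 0.15, and the muscle LIM protein Csrp3 at -0.12, 0.09 and 0.17. The remaining proteins of the Z-disc and its costamere links had values of -0.03, -0.13 and 0.03 (filamin C, Flnc), 0.02, -0.08 and 0.06 (Ldb3), 0.06, -0.08 and 0.10 (Myoz2), -0.13, -0.27 and -0.04 (Synpo2l) and -0.25, 0.08 and -0.19 (nexilin, Nexn). Without the library labelled Nipbl +/- replicate 2, the values in Nipbl +/- hearts were -0.15 for Synpo2l and, with a turned direction, -0.09 for Nexn, 0.0056 for Ldb3 and 0.011 for Myoz2. In all, without this library 19 of the 38 values in Nipbl +/- against wild-type hearts turned direction (4) or moved by over 1.5 times, as did 7 of 38 in double heterozygous against wild-type hearts (0 turned). Smpx, a small muscle protein, was at -0.09, -0.13 and -0.08, Nebl at -0.07, -0.03 and -0.11, Xirp1 at -0.06, -0.24 and -0.04 and Xirp2 at 0.18, 0.34 and 0.63. Unc45b, a chaperone of myosin, was at -0.14, -0.11 and -0.19, and the methyltransferase Smyd1, which acts with it in myofibril assembly, at -0.05, 0.00 and -0.22. Without the library labelled Nipbl +/- replicate 2, Unc45b fell in double heterozygous against wild-type hearts (-0.22, adjusted p 0.0461, edgeR), which brought that count to 2 of 38 members while the share of all genes called went from 2.6% to 5.57%.

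Ankrd1, a titin-binding protein that is also a nuclear cofactor, had the largest interaction estimate among the members. It ran from 594 to 1055 CPM in wild-type (median 741), from 452 to 740 CPM in Isl1 +/- (median 608), from 224 to 920 CPM in Nipbl +/- (median 569) and from 612 to 958 CPM in double heterozygous hearts (median 787). The medians of both single heterozygotes were below that of wild-type hearts and the median of the double heterozygotes was above it, with overlapping ranges. The log2 interaction was 0.74 (SE 0.21, unadjusted p 0.00158, adjusted p 0.999, edgeR), so the pattern did not pass the threshold over all genes.

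The levels of many of these genes varied between libraries along with a slope on transcript length. For each library a slope of log2 CPM, as its deviation from the mean over libraries, on log2 transcript length was taken over 11922 genes. The Spearman correlation behind it ran from -0.60 to 0.64 between libraries, was positive in 19 of 37 and negative in all 6 libraries of set 1. Its median over all sets was -0.36 in wild-type (3 of 10 libraries positive), -0.08 in Isl1 +/- (4 of 9), 0.27 in Nipbl +/- (5 of 9) and 0.33 in double heterozygous hearts (7 of 9), but the sets held the genotypes in unequal numbers. Within set 2 the medians were -0.48 in wild-type, 0.03 in Isl1 +/-, -0.55 in Nipbl +/- and -0.52 in double heterozygous hearts, and within set 5 they were -0.02, 0.47, 0.38 and 0.33 in the same order. Within set 6 they were 0.51, 0.46, 0.27 and 0.60, the second and the last from 1 library each, so the order of the genotypes was not the same in every set. After removal of genotype and set, over the 36 libraries outside set 7, most short members followed this slope downwards. For Tnni3, Pearson's r was -0.94 and Spearman's rho -0.89 (permutation p 1e-05 for each, the smallest that 100000 resamples can give, adjusted over 38 genes 2.71e-05 and 3.45e-05). Without the 2 libraries with the most extreme slopes r was -0.91, and within sets 1, 2, 5 and 6 it was -0.98, -0.89, -0.94 and -0.99.

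Longer members were mixed. Of the 22 over 2500 bases, 14 had a positive and 8 a negative r, among the latter Tpm1 (2890 bases, r -0.94), Tnnt2 (3330 bases, r -0.81) and Des (3028 bases, r -0.65). For the Z-disc protein nebulette (Nebl), r was 0.71 and rho 0.75 (permutation p 1e-05 for each, adjusted over 38 genes 2.71e-05 and 3.45e-05), with r at 0.66 without the 2 most extreme libraries and at 0.25, 0.63, 0.87 and 0.86 within the sets. For Acta1, r was -0.02 (permutation p 0.893) and rho 0.10 (permutation p 0.546), with r at 0.10 without the 2 most extreme libraries and from -0.39 to 0.49 within sets. For Actc1, r was 0.19 (permutation p 0.274) and rho 0.16 (permutation p 0.335), with r at 0.22 without these libraries. In all, 25 of the 38 relations had an adjusted permutation p under 0.05, 16 negative and 9 positive, and 23 of the 25 had the same sign in all 4 sets. The slope was fitted on transcript length in the same libraries, so on average short genes fall and long genes rise with it by definition. The share of all genes that follow it was not computed, so this count is not a result about the members. Of the 16 members with a longest transcript under 2500 bases, 14 had a negative r. The part of RNA quality or of cell makeup in this slope was not tested.

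**Figure D5:**
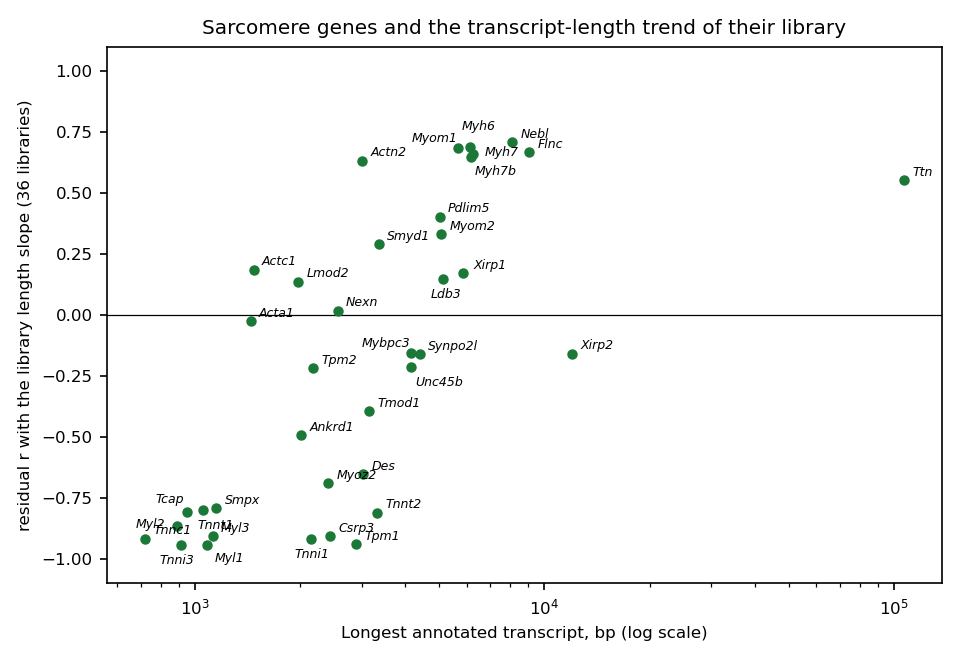
Residual correlation of each member with the length slope of its library (vertical axis, after removal of genotype and set, 36 libraries) against the length of its longest transcript (log axis). Short transcripts such as Tnni3 (r -0.94) and Tnnc1 (r -0.92) lie at the bottom, Nebl (r 0.71) and Myh6 (r 0.69), with longer transcripts, at the top, and Acta1 (r -0.02) and Actc1 (r 0.19) lie near 0. Some longer transcripts also lie low, as Tpm1 (r -0.94) and Tnnt2 (r -0.81) do.

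None of the 4 ratios had an adjusted permutation p under 0.05 with this slope. The r of Acta1 to Actc1 was still larger in size than that of either gene alone. With genotype and set removed over the same 36 libraries, the ratio of Tnni3 to Tnni1 had a Pearson's r of -0.32 with it (permutation p 0.0567, adjusted over 4 ratios 0.227) and a Spearman's rho of -0.25 (permutation p 0.135, adjusted 0.540). Without the 2 libraries with the most extreme slopes r was -0.33, and within sets 1, 2, 5 and 6 it was 0.057, -0.82, 0.24 and -0.48, so its sign was not the same in every set. The r of Acta1 to Actc1 was -0.22 (rho -0.05, permutation p 0.199 and 0.780, r -0.05 without the 2 libraries). That of Myl7 to Myl2 was 0.20 (rho 0.03, permutation p 0.225 and 0.867, r 0.15 without them). That of Myh6 to Myh7 was -0.0041 (rho -0.09, permutation p 0.981 and 0.587, r -0.15 without them). Within sets 1, 2, 5 and 6 r was -0.046, -0.018, -0.58 and 0.085 for Acta1 to Actc1. In the same order it was 0.060, -0.73, 0.56 and 0.25 for Myl7 to Myl2 and 0.31, -0.70, -0.11 and 0.52 for Myh6 to Myh7. For these ratios too the sign was not the same in every set. When the slope was subtracted from each ratio, an alternative added after seeing the data, the difference of Tnni3 to Tnni1 from wild-type hearts was 0.37 in Nipbl +/- and 0.44 in double heterozygous hearts (permutation within sets, adjusted p 0.00381 for each). It was 0.08 in Isl1 +/- hearts and passed the threshold there (adjusted p 0.0369), while the calls of the other 3 ratios did not change.

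With this slope as a further covariate, an alternative added after seeing the data, more members passed the threshold. In Nipbl +/- against wild-type hearts 3 of 38 members did, with 4.69% of all genes called. Myl1 (0.20, adjusted p 0.0147, edgeR) and Tnni3 (0.20, adjusted p 0.0336) rose and Myl2 fell (-0.31, adjusted p 0.0217). In double heterozygous against wild-type hearts 5 of 38 did, with 4.94% of all genes called. Acta1 (0.42, adjusted p 0.00763), Myl1 (0.30, adjusted p 2.41e-04) and Csrp3 (0.23, adjusted p 0.00631) rose, and Tnni1 (-0.25, adjusted p 0.0140) and Myl2 (-0.28, adjusted p 0.0479) fell.

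In double heterozygous against Isl1 +/- hearts the same fit called 3 of 38 members, Acta1, Csrp3 and Myl1, all higher, with 1.89% of all genes called. For the averaged Nipbl effect it called 7 of 38, with 8.35% of all genes called. Acta1 (0.44), Myl1 (0.23), Tnni3 (0.18) and Csrp3 (0.16) were higher and Myl2 (-0.24), Tnni1 (-0.18) and Pdlim5 (-0.15) lower in hearts labelled Nipbl heterozygous. The estimate of Acta1 in Nipbl +/- hearts was 0.25 with and without the slope. In Isl1 +/- against wild-type hearts 0 of 38 members and 0% of all genes were called in this fit too, and in double heterozygous against Nipbl +/- hearts 0 of 38 members and 0.0133% of all genes. The averaged effect of Isl1 called 0 of 38 members and 0.711% of all genes, and the interaction 0 of 38 and 0%.

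The levels of both actin genes moved together between libraries. With genotype and set removed, Acta1 and Actc1 had a Pearson's r of 0.79 and a Spearman's rho of 0.76 over 36 libraries (permutation p 1e-05 for each, the smallest possible). Without the 2 libraries with the most extreme Actc1 r was 0.71, and within sets 1, 2, 5 and 6 it was 0.97, 0.87, 0.66 and 0.39. This pair was picked after the values were seen.

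Other genes of the contractile apparatus, from a list of 46 of which 45 were in the table and 44 were tested, were called in some comparisons. In Nipbl +/- against wild-type hearts, with 1.71% of all genes called, 2 of 44 were called. Of these 1 rose, Mybphl, an atrial relative of myosin binding protein C (0.42, SE 0.08, adjusted p 0.00306, edgeR), and 1 fell, fast skeletal troponin I Tnni2 (-1.11, SE 0.20, adjusted p 0.00168). In double heterozygous against wild-type hearts 4 of 44 were called, beside 2.6% of all genes. Of these 2 rose, alpha-actinin 3 (Actn3, 0.68) and fast myosin binding protein C (Mybpc2, 1.49), and 2 fell, Tnni2 (-0.92) and the Z-disc protein Myoz1 (-0.51). Against Isl1 +/- hearts, the double heterozygous hearts had 3 of 44 called, beside 0.957% of all genes, Mybphl (0.34) and Actn3 (0.65) higher and Myoz1 (-0.42) lower. The averaged Nipbl effect called 6 of 44, beside 4.02% of all genes. Mybphl (0.38), Actn3 (0.48), the thin filament protein leiomodin 3 (Lmod3, 0.27) and the Z-disc protein myotilin (Myot, 1.19) were higher and Tnni2 (-0.89) and Myoz1 (-0.34) lower in hearts labelled Nipbl heterozygous. In Isl1 +/- against wild-type hearts, in double heterozygous against Nipbl +/- hearts, for the averaged Isl1 effect and for the interaction edgeR called 0 of 44. The median log2 change of this list was -0.03 in Nipbl +/- and -0.03 in double heterozygous hearts, beside 0.01 and 0.00 over all genes.

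None of 12 transcription factors of sarcomere genes was called by edgeR in any of the 8 comparisons. Of 24 cardiomyocyte genes outside the sarcomere, 2 were called in Nipbl +/- (beside 1.71% of all genes) and 1 in double heterozygous hearts (beside 2.6%). The potassium channel Kcnj3 rose (0.53 in Nipbl +/- and 0.37 in double heterozygous against wild-type hearts, edgeR) and the gap junction gene Gja1 fell in Nipbl +/- hearts (-0.42). The summed level of these 24 genes had a median of 5831 CPM in wild-type, 5730 in Isl1 +/-, 6351 in Nipbl +/- and 6195 CPM in double heterozygous hearts. That of the 38 members had a median of 59119, 54442, 51787 and 53862 CPM in the same order, with overlapping ranges.

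Markers of chambers and of other cells moved beside these results. For comparison, 1.2% of all genes were called higher and 0.518% lower in Nipbl +/-, and 1.77% higher and 0.824% lower in double heterozygous against wild-type hearts. The 6 genes listed as ventricular all had log2 changes below 0 in both. Mycn (-0.47) and Irx4 (-0.47) fell in Nipbl +/- hearts, as did Mycn (-0.50), Irx4 (-0.50) and Hey2 (-0.42) in double heterozygous hearts. The summed level of the 6 ran from 678 to 1118 CPM in wild-type and 741 to 919 CPM in Isl1 +/- hearts. It ran from 705 to 908 CPM in Nipbl +/- and 574 to 879 CPM in double heterozygous hearts, with 0 of the 6 genes at 0. Of 6 genes listed as atrial, sarcolipin (Sln) rose by 1.84 in Nipbl +/- and 2.23 in double heterozygous hearts on the log2 scale. In the same order, 4 and 5 of the 6 had log2 changes above 0. The summed level of these 6 ran from 1814 to 3071 CPM in wild-type and 2084 to 2812 CPM in Isl1 +/- hearts. It ran from 1343 to 3093 CPM in Nipbl +/- and 1895 to 3339 CPM in double heterozygous hearts. Whether the listed genes are confined to 1 chamber was not tested. The part of chamber proportions in the ratio of Myl7 to Myl2 was not tested either.

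Markers of skeletal muscle, where Acta1 is the main actin, were low. Of the 11 markers, 2 had enough counts to test, and their summed level was at most 6.14 CPM in any library, against at least 442 CPM of Acta1. Of the 11, Pax7 was at 0 in all Nipbl +/- and Chrna1 in all double heterozygous libraries, and Myh3 rose in double heterozygous hearts (1.69, adjusted p 0.00970, edgeR). Of 9 smooth muscle genes Myh11 rose (1.36 in Nipbl +/- and 1.68 in double heterozygous hearts). Over all 9, 4 had log2 changes above 0 in Nipbl +/- (median log2 change -0.03) and 7 in double heterozygous hearts (0.11), with summed levels of 4950 to 8621 CPM in wild-type, 4968 to 7309 CPM in Isl1 +/-, 3884 to 6191 CPM in Nipbl +/- and 4700 to 6325 CPM in double heterozygous hearts. Of 7 epicardial genes 5 rose in double heterozygous hearts, beside 1.77% of all genes, Wt1 (0.53), Upk3b (0.72), Sema3d (0.73), Tbx18 (0.38) and Upk1b (0.38), while in Nipbl +/- hearts Wt1 rose (0.31). Their summed level ran from 261 to 463 CPM in wild-type, 307 to 553 CPM in Isl1 +/-, 407 to 614 CPM in Nipbl +/- and 519 to 674 CPM in double heterozygous hearts, so that the first and the last did not overlap. The part of these cells in the change of Acta1 was not tested.

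Erythroid genes varied widely between libraries. The summed level of 8 erythroid genes ran from 488 to 106402 CPM over all libraries, with a median of 10584 CPM in wild-type, 14586 in Isl1 +/-, 6756 in Nipbl +/- and 15359 CPM in double heterozygous hearts. Against wild-type hearts all 7 tested genes had higher values in Isl1 +/- (median log2 change 0.63) and in double heterozygous hearts (0.71) and lower values in Nipbl +/- hearts (-0.80). None of the 7 was called in any of the 8 comparisons by edgeR, and Hba-a1 was at 0 in all Nipbl +/- and all double heterozygous libraries. Of 6 cushion mesenchyme genes Col1a1 fell in the averaged Nipbl effect (-0.65, beside 1.36% of all genes called lower), and of 8 endocardial and endothelial genes and of the 3 tested liver and foregut genes 0 were called. Liver and foregut genes reached 356 CPM in 1 Nipbl +/- library and at most 18.4 CPM in the other genotypes. The part of these cells in the levels of the members was not tested.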

How the data were processed

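The authors deposited raw counts per gene for 37 bulk RNA libraries. Per the labels' protocols, RNA was extracted with a Monarch kit and libraries were built with NEBNext Ultra II RNA. The submitters' processing notes name STAR, featureCounts, GRCm38 and mm10, with no versions. Strand setting and depth filters are not given in the sources used here, so reads of overlapping antisense genes may be mixed. Of 25239 gene rows, 4273 were at 0 in every library. No pair of libraries of 1 genotype agreed within sampling noise in a chi-square test of counts (smallest chi-square per degree of freedom 7.19 over 153 pairs).

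Counts were filtered with filterByExpr (minimum count 10, minimum total 15), scaled by TMM and tested with edgeR 4.0.16 in R 4.3.3 (genotype and set number as terms, 15046 genes, Benjamini-Hochberg over all). CPM is the count scaled to the TMM-adjusted library size. Ratios used log2 of counts plus 0.5 and were permuted exactly within the sets that hold both genotypes. The edgeR and ratio steps were tested on simulated data. The counts simulated for edgeR held no set difference and no length slope, so that test does not cover either. Transcript lengths, gene positions and shared 50-base words came from GENCODE M21 on GRCm38, and promoters from RefSeq (GRCm38.p6). Alternatives were DESeq2 1.42.0, other scalings, no filter, a pseudocount of 5, no set term, the replicate number in place of the set, and leaving out each set or library. Leaving out each library, the length slope (as a covariate, or subtracted from the ratios) and the ratios against Isl1 +/- hearts were added after seeing the data.

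The members, the further lists and the ratio pairs were chosen with earlier results of these data known. All 38 members could be named. From further lists, genes past the threshold were named, at most 5 a direction and comparison by smallest p. Genes or pairs outside this rule are marked as picked after their values were seen.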

Additional observations from a re-analysis of the deposited data

Results flagged for a closer look

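In each genotype the highest and the lowest library of every member and ratio was compared with the rest by Dixon's criterion. Of 168 such groups 30 held a library that stood apart (17.9%), where chance gives about 1 in 20 for independent groups. These groups share libraries and are not independent, and the share over all genes was not computed.

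Double heterozygous replicate 8 accounted for 12 of the 30. The members concerned had a residual r of -0.94 to -0.80 with the length slope, so they are not separate observations. This library had the lowest length slope of all libraries (-0.291). It stood above its group in Myl2 (5084 CPM), Myl3 (3903 CPM), Myl1 (750 CPM), Tnnt2 (5409 CPM), Tnnt1 (221 CPM), Tnni1 (2958 CPM), Tnni3 (1426 CPM), Tnnc1 (3399 CPM), Tpm1 (5246 CPM), Tcap (160 CPM) and Csrp3 (1245 CPM), and in the log2 ratio of Tnni3 to Tnni1 (-1.05).

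The library labelled Nipbl +/- replicate 2 stood high in Myh7b (148 CPM), Nexn (1164 CPM) and the log2 ratio of Myl7 to Myl2 (0.952), and low in Unc45b (197 CPM) and Synpo2l (97.2 CPM). Wild-type replicate 7 stood low in Ldb3 (232 CPM), Myom1 (498 CPM), Smyd1 (418 CPM) and Xirp1 (108 CPM). Nipbl +/- replicate 8 stood low in Myh6 (2707 CPM) and Actn2 (751 CPM).

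Isl1 +/- replicate 3 stood high in Actc1 (11605 CPM) and Unc45b (597 CPM), and Isl1 +/- replicate 7 in Xirp2 (1.1 CPM). Isl1 +/- replicate 2 stood low in Myom2 (0.388 CPM). Double heterozygous replicate 3 stood high in Myh7b (87.8 CPM), double heterozygous replicate 7 stood low in Tpm2 (124 CPM), and wild-type replicate 4 stood high in Xirp2 (1.15 CPM).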

How the results depend on the processing

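Other size factors, total counts, no filter on low counts, a pseudocount of 5 and leaving out set 1 changed no count of called members and no call of a ratio. Without a set term the members called were 1 in Nipbl +/- (Myom2), 0 in double heterozygous against wild-type and 0 against Isl1 +/- hearts, beside 3.1%, 3.79% and 0.817% of all genes, and the call for the averaged Nipbl effect passed from Acta1 to Myom2. In the same setting Myl1 in Nipbl +/- hearts was at -0.00987, the ratio of Myh6 to Myh7 in double heterozygous hearts at -0.045 and that of Acta1 to Actc1 in Nipbl +/- hearts at 0.24. DESeq2 called 2 members (Acta1 and Pdlim5) for the averaged Nipbl effect, beside 5.46% of all genes.

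Replicate numbers did not pair the libraries: over 54 pairs of libraries with the same number, the correlation of deviations from the genotype mean ran from -0.69 to 0.72, with 23 pairs over 0.1, and 4 of 37 libraries correlated best with their own number. With the replicate block in place of the set, 0 members were called in double heterozygous against wild-type (Acta1 0.29, adjusted p 0.146, edgeR) and 0 against Isl1 +/- hearts (Acta1 0.43, adjusted p 0.0578), beside 4.05% and 1% of all genes called. The averaged Nipbl effect called Myom2 there, beside 6.6%, with Acta1 at 0.24 (adjusted p 0.0690). Myl1 in Nipbl +/- hearts was at -0.020 and Tpm2 for the averaged Nipbl effect at -0.00182.

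Double heterozygous against wild-type hearts had 0 members called without set 2, without set 5 or without set 6, beside 0.753%, 0.441% and 1.47% of all genes, and double heterozygous against Isl1 +/- hearts 0 without set 5, beside 0.0789%. Without set 5 the averaged Nipbl effect was 0.063 for Myl2 and 0.080 for Tnni1. The log2 differences of the ratios were then 0.34 and 0.43 for Tnni3 to Tnni1, 0.46 and 0.58 for Acta1 to Actc1 and 0.35 and 0.44 for Myl7 to Myl2 in Nipbl +/- and double heterozygous hearts, and 0.0070 for Acta1 to Actc1 in Isl1 +/- hearts. Without set 2 the difference of Acta1 to Actc1 in Nipbl +/- hearts was 0.25, and that of Tnni3 to Tnni1 in Isl1 +/- hearts was 0.10 and passed the threshold. With the length slope subtracted the difference of Tnni3 to Tnni1 in Isl1 +/- hearts was 0.081 and passed the threshold. With the length slope as covariate the members called were 3, 5, 3 and 7 (Nipbl +/- and double heterozygous against wild-type, double heterozygous against Isl1 +/-, averaged Nipbl effect). The cause of these differences was not tested, beyond the smaller number of libraries and permutations where a set was left out.

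Leaving out 1 library at a time gave 1 to 2 members in double heterozygous against wild-type hearts (2 without Nipbl +/- replicate 2). It gave 0.15 to 0.25 for Myh6 to Myh7 in Isl1 +/- hearts, past the threshold without Isl1 +/- replicate 2, wild-type replicate 1 or wild-type replicate 7. For Tnni3 to Tnni1 there it gave 0.046 to 0.075, past the threshold without wild-type replicate 7. In the order given for the length slope, 258, 391, 144 and 605 of all genes were called with every library. With 1 library left out these numbers ran up to 410, 839, 361 and 1044 (without Nipbl +/- replicate 2) and down to 167 (without Nipbl +/- replicate 9), 244 (without double heterozygous replicate 4), 73 and 436 (both without Isl1 +/- replicate 6). They were 467, 570, 123 and 1045 without a set term and 31, 113, 22 and 152 without set 2. Counts of 5 to 74 per library limit Myom2 and Xirp2.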
